A study of Mus musculus with 12 samples.

Results

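H3K4me3 regions that carried neither H3K27ac nor H3K27me3 were examined in a female mouse pancreatic cancer line labelled KDM6A-WT. They were chosen by the overlap of region calls, as the regions of its H3K4me3 list that no region of its H3K27ac list and no region of its H3K27me3 list overlapped by 1 bp or more, and 2133 of 24492 H3K4me3 regions, or 8.71% [8.36 to 9.07], met that rule. They are called neither-mark regions here. Of the others, 18435 had H3K27ac alone (acetylated regions), 2067 had H3K27me3 alone and 1857 had both marks. The choice rests on lists, so a region called free of a mark may still hold signal below the threshold of that mark's list.

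Chromatin immunoprecipitation with sequencing had been done on untreated cell lines from murine pancreatic tumours, kept in F12/DMEM with EGF, and region lists of 11 of the 12 libraries were used. The lists covered KDM6A and MLL4 (antibody against KMT2D) in the female KDM6A-KO and female KDM6A-WT lines, H3K4me1 in the female KO, female WT, male KO and male WT lines, and H3K4me3, H3K27ac and H3K27me3 in the female WT line alone. Every label, that of the WT lines included, describes the cells as coming from a tumour that lacks Kdm6a, and KO and WT follow the genotype field. The driver alleles, the number of clones and the age of the animals are not given in the sources used here. There was 1 library per group, so no difference has a replicate check and no p-value was computed. Brackets hold exact 95% binomial intervals over regions, which cover counting error only. Reads within the listed regions ran from 108165 for MLL4 of WT to 17526099 for H3K4me3, and the full depth of the libraries is unknown.

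H3K4me3 is placed at promoters by the SET1 and MLL methyltransferases and usually goes with H3K27ac, the acetylation that marks active promoters and enhancers. H3K27me3 is the silencing mark of Polycomb repressive complex 2, and promoters that carry it beside H3K4me3 are called bivalent. H3K4me1 is deposited largely by MLL3 and MLL4 around enhancers and at the flanks of promoters. KDM6A is an X-linked demethylase that removes H3K27me3 and a subunit of the MLL3 and MLL4 complexes.

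The neither-mark regions were short and thinly read. Their median length was 1200 bp (quartiles 1000 and 1400 bp), against 3000 bp (1800 and 4200 bp) for acetylated regions, 1200 bp (1000 and 1600 bp) for regions with H3K27me3 alone and 2800 bp (2000 and 3800 bp) for regions with both marks. Their median read density was 55.0 H3K4me3 reads per kb (quartiles 42.5 and 81.2), against 186 (55.0 and 323) for acetylated regions, 65.6 (45.0 and 103) for regions with H3K27me3 alone and 247 (163 and 323) for regions with both marks. In length and density they thus lay closest to the regions with H3K27me3 alone. They held 61 reads in the median, with a range of 19 to 1024, covered 2.67 Mb or 3.61% of the bases of the list, and took 1.18% of its reads. A longer region has more room to meet another list, so length is tied to the rule, and these values are a description.

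**Figure D1:**
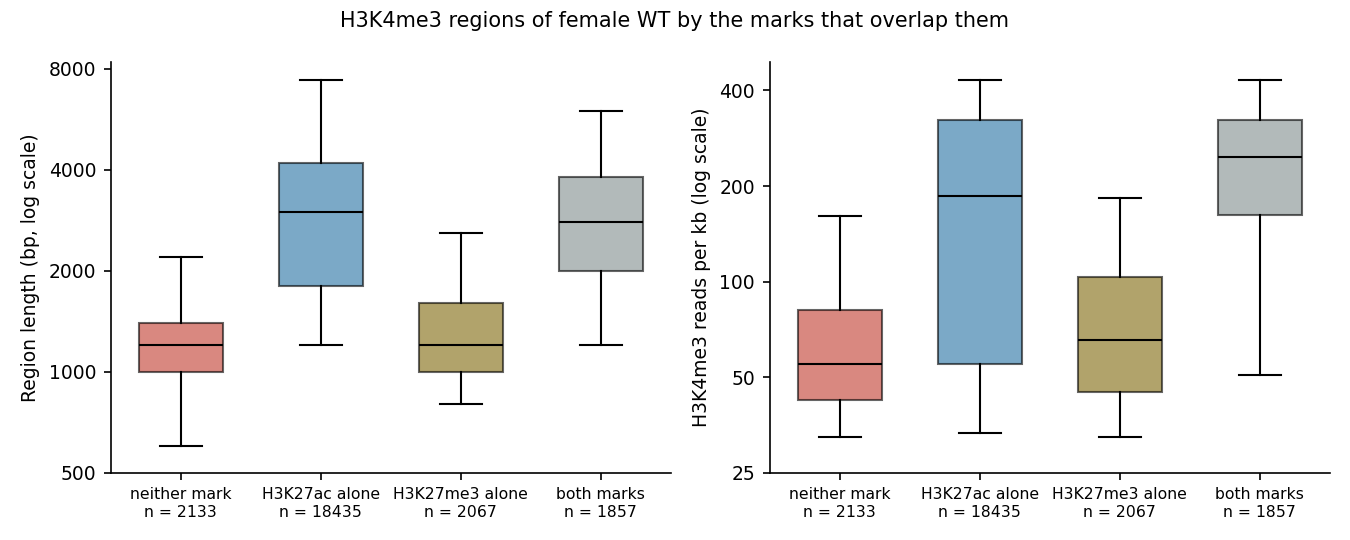
Length in bp (left) and H3K4me3 reads per kb (right) of the 4 classes of H3K4me3 regions, on log axes; boxes span the quartiles with the median as a line, and whiskers reach the 5th and 95th percentiles over regions. Regions with neither mark and regions with H3K27me3 alone have the same median length of 1200 bp, below the 3000 bp of acetylated regions.

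The share of neither-mark regions was lower among longer and better-read H3K4me3 regions. Among H3K4me3 regions of up to 800 bp, 41.2% [38.4 to 44.0] carried neither mark, among those of 1000 to 1200 bp 28.3%, among those of 1400 to 2000 bp 10.7%, and among those of 2200 bp or more 0.922% [0.772 to 1.09]. By reads the share was 29.0% under 50 reads, 16.3% from 50 to 99, 10.5% from 100 to fewer than 250, and 1.21% [1.03 to 1.42] at 250 or more. Well-read exceptions existed: 159 neither-mark regions held at least 250 reads. The 5 with the most reads lay on 5 chromosomes. The leading one was on chromosome X, 130221601 to 130227000, with 1024 reads over 5400 bp; it overlapped H3K4me1 of male KO and male WT and of neither female line, and its nearest H3K27ac region was 365.8 kb away. Next was chromosome 14, 98566001 to 98570200, with 828 reads, 873.6 kb from the nearest H3K27ac and with H3K4me1 in male KO alone. Chromosome 13, 21973201 to 21976400, held 821 reads and had H3K4me1 in both male lines. Chromosome 19, 9208001 to 9210800, held 723 reads, with H3K4me1 in the female KO, female WT and male KO lines. The region of highest density was chromosome 8, 80133201 to 80135200, with 674 reads over 2000 bp or 337 reads per kb; all 4 H3K4me1 lists overlapped it, and an H3K27me3 region lay 200 bp away. All positions are in mm9, counted from 1; no gene was assigned to a region because no annotation of that build was used here.

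Most neither-mark regions were not at the border of an acetylated or silenced stretch. The nearest H3K27ac region was a median of 28.8 kb away (quartiles 9 and 113 kb), and the nearest H3K27me3 region 63.4 kb (10.4 and 312 kb). Only 51 of the 2133 lay within 1 kb of H3K27ac, and 119 within 1 kb of H3K27me3. Near the 1 bp rule, 5 neither-mark regions lay at most 200 bp from H3K27ac and 56 at most 200 bp from H3K27me3, while 5 H3K4me3 regions were put outside by 200 bp or less of H3K27ac and 37 by 200 bp or less of H3K27me3. The 56 just inside had a median of 55 reads and the 37 just outside 64. The regions were also apart from other H3K4me3. Their nearest other H3K4me3 region was a median of 27.8 kb away, against 10.6 kb for acetylated regions, 22.8 kb for regions with H3K27me3 alone and 16.0 kb for regions with both marks. A gap above 100 kb to any other H3K4me3 region was found for 25.1% [23.3 to 27.03] of neither-mark regions, against 7.72% of the whole H3K4me3 list. The share was 13.8% [12.33 to 15.35] for regions with H3K27me3 alone, 7.11% for regions with both marks and 5.09% [4.77 to 5.42] for acetylated ones.

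H3K4me1, which the rule did not use, was listed at fewer neither-mark regions than at acetylated ones in each of the 4 lines. In female KO 727 neither-mark regions were overlapped, or 34.1% [32.1 to 36.1], against 87.3% of acetylated regions and 77.8% of the whole H3K4me3 list. In female WT 873 were overlapped, or 40.9% [38.8 to 43.1], against 89.7% of acetylated regions and 81.1% of the whole list. The regions with H3K27me3 alone gave similar shares, 36.2% [34.2 to 38.4] in female KO and 41.9% [39.8 to 44.1] in female WT. In male KO 1371 neither-mark regions were overlapped, or 64.3% [62.2 to 66.3], against 95.6% of acetylated regions and 90.8% of the whole list. In male WT 983 were overlapped, or 46.1% [44.0 to 48.2], against 91.4% of acetylated regions and 82.9% of the whole list. For regions with H3K27me3 alone the male shares were 71.8% [69.8 to 73.7] in KO, above the neither-mark regions, and 45.1% [42.9 to 47.3] in WT. The male KO list thus met the largest part of the neither-mark regions, with the other lists between 34.1% and 46.1%. It also met the largest part of each other class, so this was not particular to neither-mark regions. Since H3K4me3 was listed in no line but female WT, the state of these regions in the male lines is known only by H3K4me1.

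**Figure D2:**
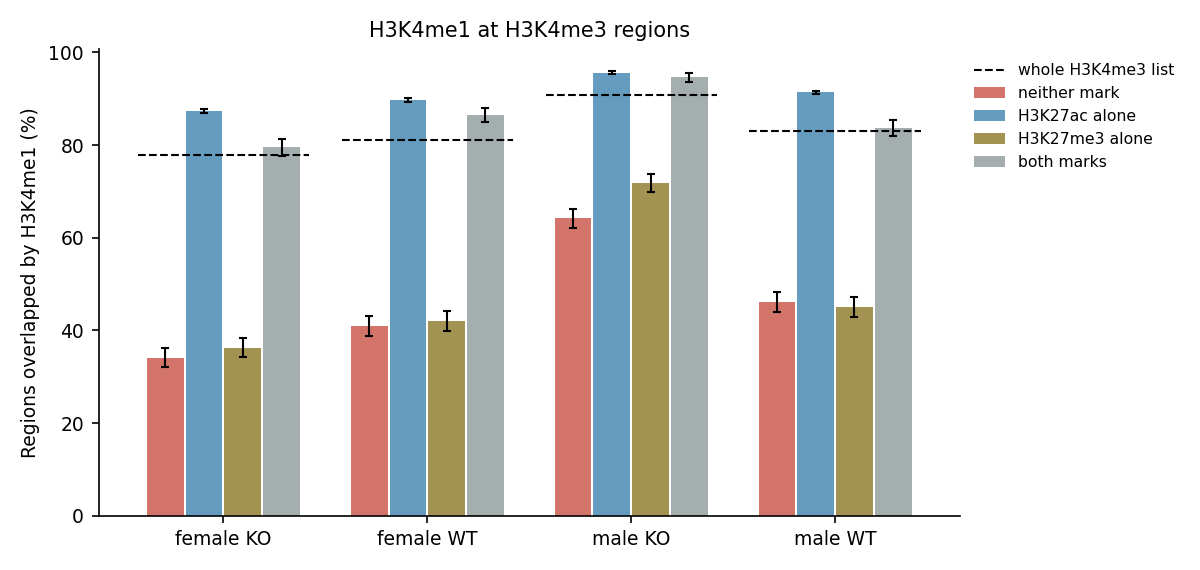
Share of H3K4me3 regions overlapped by H3K4me1 in each of the 4 H3K4me1 lists, in percent, by class of H3K4me3 region; error bars are exact 95% binomial intervals and the dashed line is the whole H3K4me3 list. Neither-mark regions lie below that line in every list, and reach 64.3% in male KO.

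Acetylated regions were also weighted to the length and read classes of the neither-mark regions (12 joint classes holding 2127 neither-mark regions). H3K4me1 was present at 34.1% of the neither-mark regions and 74.2% of the weighted acetylated regions in female KO, and at 41.0% and 80.2% in female WT. The same shares were 64.3% and 90.3% in male KO, and 46.1% and 89.9% in male WT. Among regions of up to 800 bp, H3K4me1 of at least 1 line was present at 67.3% [63.1 to 71.4] of neither-mark regions and 97.7% [95.6 to 98.9] of acetylated ones. Regions of that length with H3K27me3 alone had 76.3%. In single lists they were close to neither-mark regions, as in female KO (25.3% and 24.4%), female WT (28.5% and 29.7%), male KO (56.0% and 54.7%) and male WT (36.4% and 37.4%). Among regions with 250 reads or more, at least 1 line had H3K4me1 at 90.6% [84.9 to 94.6] of neither-mark regions, 99.5% [99.3 to 99.6] of acetylated ones and 96.8% of those with H3K27me3 alone.

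Taken over all 4 lists, H3K4me1 at neither-mark regions was spread over many patterns. No list overlapped 458 of them, or 21.5% [19.7 to 23.3], against 3.56% of the whole H3K4me3 list and 0.624% of acetylated regions. All 4 lists overlapped 337, or 15.8% [14.3 to 17.4], against 64.8% of the whole list and 76.1% of acetylated regions. At least 1 list overlapped 78.5% [76.7 to 80.3], against 96.4% of the whole list, and 98.1% [98.0 to 98.3] of the H3K4me3 regions outside the neither-mark set. Of the regions with H3K27me3 alone, 13.9% were in no list, 14.8% [13.25 to 16.36] in all 4 and 86.1% in at least 1. The low share in all 4 lists was thus not particular to neither-mark regions. The most frequent pattern after absence from all 4 lists and presence in all 4 was H3K4me1 in male KO alone, at 307 regions or 14.4%, against 19.5% of regions with H3K27me3 alone and 1.44% of acetylated regions. Presence in every line but female KO followed, at 197 regions or 9.24%, against 8.95% of regions with H3K27me3 alone and 6.41% of acetylated regions. H3K4me1 in male WT alone was found at 69 or 3.23%, in female WT alone at 57 or 2.67% and in female KO alone at 39 or 1.83%. Regions with H3K27me3 alone were near these values, at 3.63%, 2.52% and 1.89%, and acetylated regions had 0.363%, 0.277% and 0.1465%.

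Neither-mark regions without any H3K4me1 had somewhat fewer reads than the others and lay further from acetylation. Their median was 51 reads and 52.5 reads per kb, against 64 reads and 55.8 reads per kb for those with H3K4me1 in at least 1 list. Their nearest H3K27ac region was a median of 68.7 kb away, against 23.4 kb, and their nearest other H3K4me3 region 54.8 kb, against 23.6 kb. The 5 with the most reads held 385 to 479 reads over 1800 to 2600 bp, and all 5 had no KDM6A or MLL4 in any list. The first was chromosome 7, 67387601 to 67390200, with its 479 reads. Chromosome 4, 74922801 to 74924800, came next at 439 reads. A pair of the others lay on chromosome X, at 109424601 to 109426400 (428 reads) and at 108575601 to 108578000 (420 reads).

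H3K4me1 became less frequent with distance from the H3K27ac regions of female WT in all 4 lines. Within 1 kb of H3K27ac, 68.6% [54.1 to 80.9] of the neither-mark regions had H3K4me1 in female KO, 64.7% [50.1 to 77.6] in female WT, 76.5% [62.5 to 87.2] in male KO and 70.6% [56.2 to 82.5] in male WT, intervals that overlap. Beyond 100 kb, where 568 of the regions lay, the shares were 17.6% [14.6 to 21.0] in female KO, 21.8% [18.5 to 25.5] in female WT, 51.4% [47.2 to 55.6] in male KO and 33.1% [29.2 to 37.1] in male WT. Median length was 1200 bp in each distance class, and median reads ran only from 50 to 64. The 568 regions also lay a median of 206 kb from other H3K4me3. At least 1 H3K4me1 list overlapped 96.1% within 1 kb of H3K27ac and 65.5% beyond 100 kb. For gaps to H3K27me3 the same shares were 85.7% and 72.7%. The gaps to H3K27ac and to H3K27me3 were not separated from each other. Which of these gaps the H3K4me1 share follows was not tested.

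Where H3K4me1 was listed, it usually covered the whole neither-mark region. The region was fully covered in 75.1% [71.8 to 78.2] of cases in female KO, 74.7% [71.7 to 77.5] in female WT, 86.0% [84.1 to 87.8] in male KO and 81.1% [78.5 to 83.5] in male WT. Acetylated regions, which are longer, were fully covered in 59.7% of cases in female KO, 53.9% in female WT, 64.5% in male KO and 58.9% in male WT. For regions with H3K27me3 alone the values were, in the same order, 66.4%, 62.9%, 78.6% and 70.7%. The H3K4me1 regions met by neither-mark regions were of modest size. Their median length ran from 2400 bp in male KO to 2800 bp in male WT, where acetylated regions met H3K4me1 regions of 5000 to 5400 bp in the median. Ranked by reads within their own list, they had a median percentile of 35.5 in female KO, 46.8 in female WT, 36.9 in male KO and 48.9 in male WT. The H3K4me1 regions met by acetylated regions had a median percentile of 76.1 in female KO, 78.9 in female WT, 80.8 in male KO and 81.4 in male WT. Regions with H3K27me3 alone met H3K4me1 regions of 2200 to 2600 bp in the median. Their median percentiles were, in the same order, 29.7, 32.0, 33.3 and 38.9, so the modest size was not particular to neither-mark regions.

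In the male lines more neither-mark regions had H3K4me1 in KO than in WT. The difference was 18.2 percentage points [15.9 to 20.4]: 583 were listed in KO alone, or 27.3%, and 195 in WT alone, or 9.14%. In the whole H3K4me3 list 12.1% were listed in male KO alone and 4.22% in male WT alone. KO was higher on 20 of 20 chromosomes, and on 17 of 20 for acetylated regions. The male KO list is the shorter, with 49780 regions against 64247, and with each list at 49780 regions the shares of neither-mark regions were 64.3% in KO and 35.2% in WT, set against 90.8% and 75.9% of the whole H3K4me3 list. Acetylated regions of like reads were at or slightly below 0 points under 250 reads. By read class, though, male WT already had H3K4me1 at 89.6% to 94.6% of acetylated regions, against 41.1% to 48.4% of neither-mark regions. Acetylated regions thus had little room to gain, and the point differences of these classes are not on an equal footing. From 100 to fewer than 250 reads, KO minus WT was 26.7 points [21.2 to 31.3] for neither-mark regions and -1.06 points [-2.15 to 0.0521] for acetylated ones; at 250 reads or more it was 30.8 points [21.7 to 37.2] and 8.23 points [7.83 to 8.58]. The regions with H3K27me3 alone had a larger difference than the neither-mark regions, at 26.7 points [24.2 to 29.0], so it was not particular to them.

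In the female lines the difference depended on the length of the lists. As listed, KO was lower, with a KO minus WT difference of -6.84 points [-9.27 to -4.36]: 286 neither-mark regions had H3K4me1 in KO alone, or 13.4%, and 432 in WT alone, or 20.3%, against 7.82% in KO alone and 11.2% in WT alone over the whole H3K4me3 list. KO was lower on 16 of 20 chromosomes, and on 15 of 20 for acetylated regions. With each list at its 35041 regions with the most reads, KO was higher, at 34.1% against 24.4% in WT, while the whole H3K4me3 list gave 77.8% in KO and 66.9% in WT. The direction for the female lines is therefore not settled by these lists. In the male lines KO was higher either way. Of the 873 neither-mark regions with H3K4me1 in female WT, 50.5% also had it in female KO, against 90.3% of such acetylated regions, 51.4% of such regions with H3K27me3 alone and 86.2% over the whole H3K4me3 list. Of the 983 with H3K4me1 in male WT, 80.2% also had it in male KO, against 96.5% of acetylated regions, 79.6% of regions with H3K27me3 alone and 94.9% over the whole list.

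**Figure D3:**
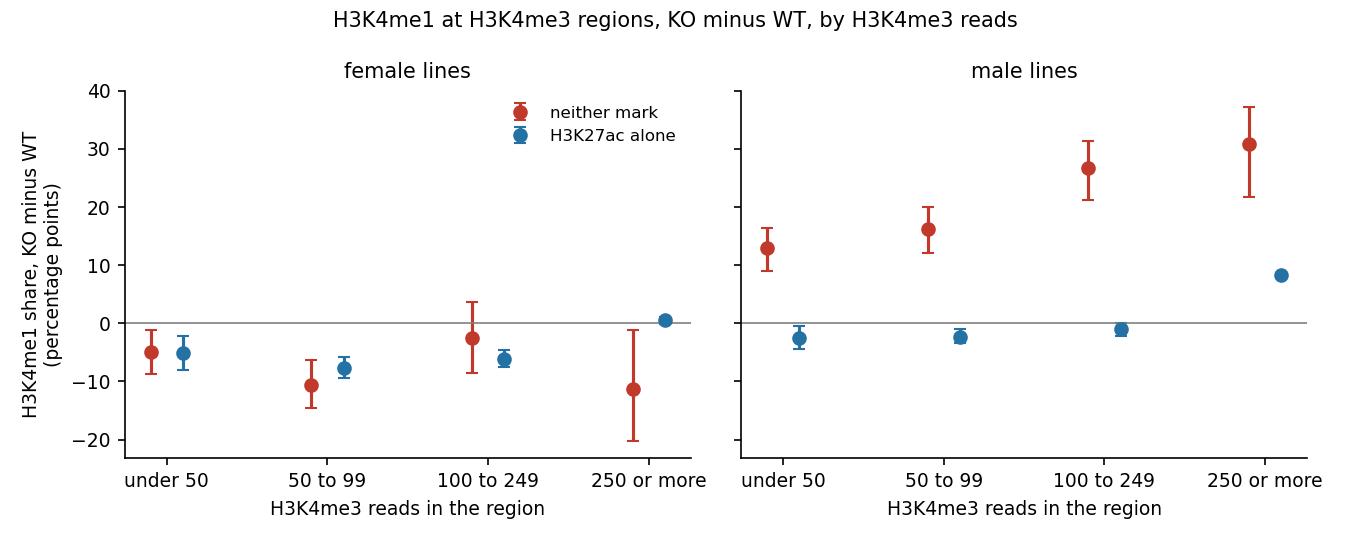
Share of regions with H3K4me1 in KO minus that in WT, in percentage points, for female (left) and male (right) lines, by the number of H3K4me3 reads in the region; points are regions with neither mark and acetylated regions, and bars are exact 95% intervals given the regions listed in 1 of the 2 lists. In the male lines neither-mark regions lie at 12.9 to 30.8 points, with acetylated regions between -2.46 and 8.23. Acetylated regions had H3K4me1 at 89.6% to 94.6% in male WT by read class, which left little room to gain.

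Neither-mark regions listed for H3K4me1 in male KO alone had slightly more H3K4me3 reads than those listed in male WT alone. The 583 with H3K4me1 in male KO and not in male WT had a median of 73 H3K4me3 reads and 62.5 reads per kb, the 195 of the opposite kind 57 reads and 51.4 reads per kb. In the female lines 32.8% of those 583 had H3K4me1 in KO and 26.4% in WT, and of the 195, 16.9% had it in KO and 59.0% in WT. Of the 286 listed in female KO and not in female WT, 82.5% had H3K4me1 in male KO and 43.7% in male WT. Of the 432 listed in female WT and not in female KO, the shares were 65.3% in male KO and 67.1% in male WT. H3K4me1 in both KO lines alone was found at 5.72% of neither-mark regions, 5.85% of regions with H3K27me3 alone and 1.87% of acetylated ones. In both WT lines alone the values were 4.36%, 2.90% and 1.32%. Over the whole H3K4me3 list, H3K4me1 shares were 90.8% in male KO, 82.9% in male WT, 77.8% in female KO and 81.1% in female WT. The shares within such groups were not computed for other classes.

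KDM6A was rarely listed at neither-mark regions in either genotype. It overlapped 18 of them in KO, or 0.844% [0.501 to 1.33], and 11 in WT, or 0.516% [0.258 to 0.921], against 6.11% and 3.27% of the whole H3K4me3 list. KO minus WT was 0.328 points [-0.211 to 0.797]. Acetylated regions weighted to the same length and read classes had 4.55% in KO and 2.98% in WT. No neither-mark region was listed for KDM6A in both genotypes, and no region with H3K27me3 alone was, against 140 of 18435 acetylated regions and 147 of the 24492 regions of the whole list; KDM6A in KO alone was found at 5.51% of the whole H3K4me3 list and in WT alone at 2.67%. The KDM6A list of KO, at 5961 regions, was longer than that of WT, at 2847. With 2847 regions in each list, KDM6A overlapped 10 neither-mark regions in KO and 11 in WT, a difference of -0.0469 points [-0.478 to 0.398], against 3.66% in KO and 3.27% in WT of the whole H3K4me3 list. Regions with H3K27me3 alone, without weighting, had KDM6A at 0.387% in KO and 0.145% in WT. What the antibody binds in the KO line was not tested.

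MLL4 was listed more often, mainly in KO. It overlapped 50 neither-mark regions in KO, or 2.34% [1.75 to 3.08], and 11 in WT, or 0.516% [0.258 to 0.921], against 18.7% and 3.8% of the whole H3K4me3 list. KO minus WT was 1.83 points [1.15 to 2.32], and 14.9 points for the whole list. The KO list held 13152 regions and the WT list 2130. With 2130 regions in each, 4 neither-mark regions were overlapped in KO and 11 in WT, so the order turned, at -0.328 points with an interval that includes 0 [-0.594 to 0.0717]; for the whole H3K4me3 list it did not, at 5.44% in KO and 3.8% in WT. No neither-mark region had MLL4 in both genotypes, and no region with H3K27me3 alone had, against 511 of 18435 acetylated regions and 523 of the 24492 regions of the whole list; MLL4 in KO alone was found at 16.6% of the whole H3K4me3 list and in WT alone at 1.67%. At like length and reads the acetylated regions had MLL4 in 17.2% of cases in KO and 2.68% in WT. Regions with H3K27me3 alone, without weighting, had it in 0.435% of cases in KO and 0.194% in WT.

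**Figure D4:**
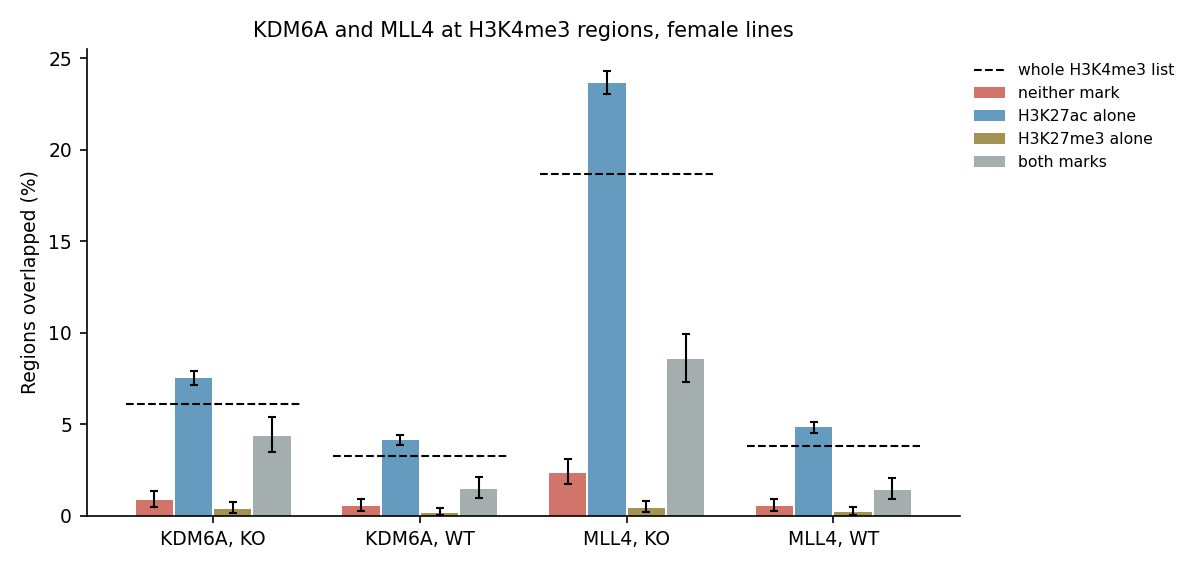
Share of H3K4me3 regions of female WT overlapped by KDM6A and by MLL4 in female KO and female WT, in percent, by class; error bars are exact 95% binomial intervals and the dashed line is the whole H3K4me3 list. Neither-mark regions reach at most 2.34%, for MLL4 in KO, where acetylated regions reach 23.7%.

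The 86 neither-mark regions with KDM6A or MLL4 in any of the 4 lists made up 4.03% [3.24 to 4.96], against 23.5% of the whole H3K4me3 list, 29.4% of acetylated regions and 1.02% of regions with H3K27me3 alone, and 78 of the 86 also had H3K4me1 in at least 1 line. H3K4me1 of male KO overlapped 75 of them, of male WT 68, of female WT 56 and of female KO 51. Over the whole H3K4me3 list the shares were, in that order, 90.8%, 82.9%, 81.1% and 77.8%, with 96.4% in at least 1 line. Over all 2133 neither-mark regions they were 64.3%, 46.1%, 40.9% and 34.1%, with 78.5% in at least 1 line. Of the 50 with MLL4 in KO, 19 or 38% lay on chromosomes 1, 6 and 17, close to the 34.1% among all H3K4me3 regions with MLL4 of KO; these chromosomes hold 52.5% of that MLL4 list. Of the 11 with MLL4 in WT, 9 lay on chromosomes 15 and 19, where 20.3% of all H3K4me3 regions with MLL4 of WT and 40.7% of that MLL4 list lie. Without those 5 chromosomes, MLL4 was listed at 1.66% [1.11 to 2.40] of the neither-mark regions in KO and 0.119% [0.0144 to 0.429] in WT. The MLL4 share of the whole H3K4me3 list without them was not computed. The KDM6A lists were uneven too, with 56.2% of the KO list on chromosomes 1, 6 and 17. Of the KDM6A list of WT, 39.55% lay on chromosomes 15 and 19. The best read neither-mark region with KDM6A in WT and not in KO was chromosome 15, 42506601 to 42509600, with 391 reads and H3K4me1 in female WT, male KO and male WT. For MLL4 in WT and not in KO it was chromosome 16, 23519201 to 23521000, with 119 reads, and the next, chromosome 15, 58592801 to 58594400, with 107 reads, was the 1 region with both KDM6A and MLL4 of WT. In KO the leading MLL4 region was chromosome X, 166424001 to 166425800, with 448 reads, 8.80 kb from H3K27ac. Chromosome X, 123307401 to 123312800, at 5400 bp level with the leading region above as the longest of all neither-mark regions, held 338 reads or 62.6 reads per kb, KDM6A and MLL4 of KO, and no H3K4me1 in any list.

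Neither-mark regions were most frequent on chromosome X. There they made up 138 of 647 H3K4me3 regions, or 21.3% [18.2 to 24.7], against 8.37% [8.02 to 8.73] on the autosomes, where single chromosomes ran from 5.18% on chromosome 11 to 12.8% on chromosome 18. The contrast was present at each size. Among regions of up to 800 bp, 75% [59.7 to 86.8] on X and 39.9% [37.2 to 42.8] on autosomes carried neither mark. Among those of 2200 bp or more, 4.81% [2.88 to 7.5] on X and 0.817% [0.675 to 0.981] on autosomes did. The X regions held a median of 82.5 reads, against 60 on autosomes, and lay a median of 78.7 kb from H3K27ac, against 27.6 kb.

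H3K4me1 was scarce at the neither-mark regions of X in all 4 lines. In female KO the share was 10.1% [5.66 to 16.4] on X and 35.7% on autosomes, and in female WT 12.3% [7.34 to 18.99] on X and 42.9% on autosomes. In male KO it was 32.6% [24.9 to 41.1] on X and 66.5% on autosomes, and in male WT 20.3% [13.9 to 28.0] on X and 47.9% on autosomes. Among regions more than 100 kb from H3K27ac, at least 1 list overlapped 34.4% [22.7 to 47.7] on X and 69.2% [65.0 to 73.2] on autosomes. Acetylated regions of X were also below those of autosomes. Their shares were 53.8% on X and 88.2% on autosomes in female KO, and 51.6% and 90.6% in female WT. In male WT they were 64.7% and 92.1%, and in male KO the fall was small, at 87.15% and 95.8%. On X 41 regions had H3K27me3 alone, with shares of 2.44% in female KO, 7.32% in female WT, 36.6% in male KO and 7.32% in male WT. Low H3K4me1 on X was thus not limited to neither-mark regions, although in male KO acetylated regions hardly shared it. The X chromosome held 2.64% of H3K4me3, 2.26% of H3K27ac and 1.35% of H3K27me3 regions of female WT; how the number of X copies bears on these lists was not tested.

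**Figure D5:**
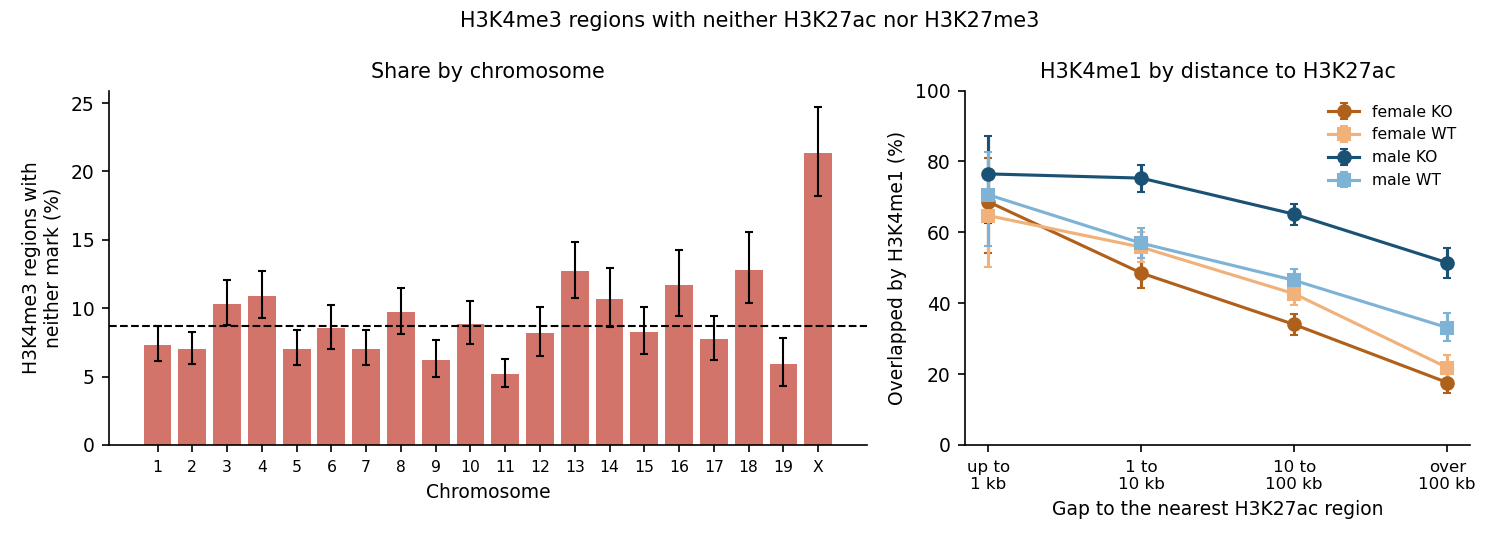
Left, share of H3K4me3 regions with neither mark on each chromosome, in percent, with exact 95% binomial intervals and the share over all chromosomes as a dashed line. Right, share of neither-mark regions overlapped by H3K4me1 in the 4 lines by gap to the nearest H3K27ac region, with the same intervals; chromosome X stands at 21.3%, and all 4 lines fall with distance.

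Of the 2133 neither-mark regions, 802 were the only one in their bin of 1 Mb and the others shared a bin with at least 1 more; 317 bins held 2. The fullest bin was chromosome 13, 21000001 to 22000000, where 12 of 34 H3K4me3 regions carried neither mark. These 12 held 38 to 821 reads, with a median of 199, and all 12 had H3K4me1 in male KO, 10 in male WT, 10 in female KO and 5 in female WT. The bin from 23000001 to 24000000 on the same chromosome held 6, with a median of 360.5 reads. Chromosome 4, 154000001 to 155000000, held 9 of 29, of which 9 had H3K4me1 in male KO and 2 in male WT. On chromosome 2, 177000001 to 178000000, 6 of 11 H3K4me3 regions carried neither mark, with a median of 136 reads, and no H3K4me1 list overlapped any of these 6. Bins were ranked after their values were seen.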

How the data were processed

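The lists are the authors' deposited BED-like files of regions with, in the last of 4 columns, a whole number taken here as a read count; no header names this column, and the unit was judged from its values. Builds and tools named are mm9, SICER 1 and Bowtie 1.1.2, per the submitters' processing notes, which give them no role. The control, the threshold and the number of mapped reads are not stated in the sources used here. The smallest gap between neighbouring regions differed between marks, and read counts were compared within a list only. Borders lie on steps of 200 bp.

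Overlap meant 1 bp or more, checked against bedtools 2.31.1 and tested on simulated data. Intervals are Clopper-Pearson at 95%; those of KO minus WT are exact given the regions listed in 1 of the 2 lists. Python 3.11.15, numpy 2.4.6, pandas 2.3.3, scipy 1.17.1 and matplotlib 3.10.9 were used. Named regions were the leading 5 per rule by reads, length or density (at least 1000 bp for density). Members, rules and the chromosomes left out were chosen with earlier results of these data known. The input library was not analysed here, and sequences were not used here.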

Additional observations from a re-analysis of the deposited data

Results flagged for a closer look

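H3K4me1 at the neither-mark regions differed in opposite directions in the 2 sexes: KO minus WT was -6.84 points in the female lines and 18.2 points in the male lines. The whole H3K4me3 list had the same opposite directions, at -3.35 points in the female and 7.85 points in the male lines, as did acetylated regions, at -2.31 and 4.24 points, and regions with H3K27me3 alone, at -5.71 and 26.7 points. Each sex had 1 library per genotype, and the difference between the sexes was not tested. With each pair of lists at the same number of regions, KO was higher in both sexes, by 9.70 points in the female lines and 29.1 points in the male lines.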

How the results depend on the processing

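No paired analysis was possible because each group held 1 library and no result comes from a test; for the same reason no library could be left out. Under the stated alternatives, 38 of 58 recomputed values of the 8 summary results (share, median length and density of the neither-mark regions, the 4 KO minus WT differences and the H3K4me1 difference from the rest of the list) stayed within the interval of the value reported, as did 40 of 64 recomputed shares for single lists; the other 24 shares moved. With H3K27ac or H3K27me3 required over at least 50% of a region, neither-mark regions were 10.7% of the list, at 60.7 reads per kb; KDM6A and MLL4, KO minus WT, were 0.875 and 2.47 points, and the H3K4me1 difference in any list, neither-mark regions minus the rest, was -16.5 points (-19.6 as reported). Beyond 1 kb from either mark they were 8.03%. Above the median of the list by reads per kb they were 1.56%, with medians of 1800 bp and 166 reads per kb; H3K4me1, KO minus WT, was -2.62 points [-11.2 to 6.23] in female and 37.2 in male lines, and the difference in any list was -13.5. Regions of at least 1000 bp gave 6.99%, 59.2 reads per kb and -16.4 points, and autosomes alone gave -17.4 points. With KO and WT lists of the same number, the H3K4me1 difference turned to 9.70 points in the female lines and was 29.1 in the male lines, the MLL4 difference turned to -0.328 points [-0.594 to 0.0717], and the difference in any list was -22.2 points; that alternative drops the weakest regions of the longer list by construction. Leaving out chromosomes 1, 6, 15, 17 and 19, chosen after seeing the data, moved none of the 8 summary results outside its interval, but the MLL4 shares were 1.66% in KO (2.34% as reported) and 0.119% in WT (0.516% as reported). Neither-mark regions held a median of 61 H3K4me3 reads and acetylated regions 558; the part of depth in their calls was not tested.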

Other observations

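Single chromosomes departed from the general KO minus WT difference in H3K4me1 at neither-mark regions. On chromosome 14 male KO had H3K4me1 at 71.9% of the 89 neither-mark regions and male WT at 25.8%, a difference of 46.1 points, and the acetylated regions of that chromosome gave 98.2% in KO and 72.4% in WT. On chromosome 15 female KO had H3K4me1 at 23.5% of the 85 neither-mark regions and female WT at 52.9%, with 81.3% in KO and 93.9% in WT for its acetylated regions. Both chromosomes were singled out after their values were seen, and the other library pair gave 38.2% in female KO and 48.3% in female WT on chromosome 14, and 85.9% in male KO and 67.1% in male WT on chromosome 15.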
